A study of Mus musculus with 6 samples.

Results

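The genes described here encode subunits of the NuRD complex, the histone deacetylases it holds, and a demethylase that works with it. They are Chd4, Mbd3, Hdac1, Hdac2, Rbbp4, Rbbp7, Mta1, Mta2 and Kdm1a, chosen by name. All 9 had a row among the 12331 genes of the deposited table. The values are RPKM (reads scaled to the length of the gene model and to the alignments of the library). Levels of different genes are set side by side on that scale, though how well each transcript was recovered as cDNA was not measured. The length behind the values can also differ from that of the annotated transcript, as for Hdac2 with 2004 against 3250 bases. The values came from 3 tagmentation libraries, in which hyperactive Tn5 transposase cut and tagged the cDNA in one reaction, and from 3 sonication libraries, in which the cDNA was sheared and then ligated to adaptors. Both groups used the same material, RNA of E14tg2a, an established line of mouse embryonic stem cells grown with serum and LIF, and the study was set up to compare the 2 ways of making a library from cDNA of single-cell amount. Each cDNA was made from 10 pg of total RNA by oligo(dT) priming and 20 PCR cycles. For the tagmentation libraries an input of cDNA and a further count of PCR cycles are also recorded, and for the sonication libraries neither. Amplification may thus differ between the methods along with the way the cDNA was cut. The replicates, numbered 1 to 3 in both groups, were technical and came from one cell line, so that a p-value here measures the spread among these libraries and no more. Fewer cells with a transcript and less of it per cell cannot be told apart in such RNA.

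NuRD joins nucleosome remodelling to histone deacetylation. CHD4 is the ATPase that moves nucleosomes, HDAC1 and HDAC2 are paired deacetylases that remove acetyl groups from histone tails, MTA proteins are the scaffold that holds and activates them, RBBP4 and RBBP7 bind histones, and MBD3 or its relative MBD2 links the parts. KDM1A (LSD1) removes methyl groups from lysine 4 of histone H3 and is found with the deacetylases in CoREST and, in some cells, with NuRD. In mouse embryonic stem cells NuRD is known for tempering the transcription of pluripotency genes, and cells without Mbd3 fail to leave self-renewal properly. Several of these subunits are encoded by pairs of paralogs that can stand in for each other in the complex.

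How far reads of these paralogs can be told apart was read from the longest stretch of letters their coding sequences share, taken from the GENCODE M21 transcripts and given 5′ to 3′ in coding orientation, lower case throughout. The stretches are shown because the comparison of paralogs below rests on them.
Hdac1 and Hdac2, 17 bases: ccagataatatgtctga
Rbbp4 and Rbbp7, 20 bases: aaccatgaaggagaagtgaa
Mta1 and Mta2, 20 bases: tttgagaactcctccagcaa
No stretch was as long as the 36-base words used to search each member's transcript against all other annotated genes, on both strands. Hdac2, Chd4, Mta1 and Mta2 shared none of their words with another gene, Mbd3 shared 0.123% and Kdm1a 0.1002%. Hdac1 was different, since 61.8% of its 2003 words also occur elsewhere. The processed pseudogene Gm10093, whose level was not analysed here, holds 59.5% of the 2003. Rbbp4 shared 37.4% of its words, 17.5% with the non-coding RNA gene Gm26722 and 16.4% with Sync. The processed pseudogenes Gm4800 and Gm7200 held 2.72% and 1.26% of the words of Rbbp4. Rbbp7 shared 19.6%, with 13.3% in the pseudogene Gm6382 and 6.29% in Txlng. The search compared transcripts and took no account of genomic position. Where annotated genes overlap, a shared word can be the same genomic bases listed again, and a read there need not have several matches. Whether this holds for Gm26722, Sync and Txlng was not tested, so the shares of Rbbp4 and Rbbp7 can overstate their reads with several matches. How the authors placed such reads is not given in the sources used here. The level of Hdac1 is thus less certain than those of the others. The levels of Rbbp4 and Rbbp7 are also less certain, to an extent that was not measured.

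The libraries had 21007424 to 34681566 alignments after tagmentation and 18852822 to 30296557 after sonication. The 9 stem cell markers, among them Pou5f1 and Zfp42, summed to 1769 to 2502 RPKM after tagmentation and 1415 to 2819 RPKM after sonication, and 7 of them reached 1 RPKM in all 6 libraries. Of the markers of other cell types, extraembryonic endoderm was represented by Dab2 alone and reached at most 9.29 RPKM after tagmentation and 5.54 RPKM after sonication. The mesoderm markers T, Mixl1 and Eomes summed to 0.339 to 88.5 RPKM after tagmentation and 0.253 to 64.1 RPKM after sonication. Sums after tagmentation against those after sonication were 136 to 195 against 121 to 187 RPKM for fibroblast markers, of which 3 of 5 stayed under 1 RPKM, 250 to 415 against 347 to 435 RPKM for trophoblast markers, and 0.723 to 2.43 against 1.26 to 2.61 RPKM for neuroectoderm markers. Of the 3 trophoblast markers with a row (Cdx2, Krt8 and Krt18), 2 reached 1 RPKM in all 6 libraries and 1 stayed under 1 RPKM in all. Of the 5 fibroblast markers with a row (Col1a1, Col1a2, Col3a1, Thy1 and Vim), 1 reached 1 RPKM in all 6 libraries. These sums thus rest on few genes. No marker list was at 0 throughout. Whether cells of these other types were present, and their part in the results, was not tested.

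Levels of most of these genes depended more on the number of the library than on the method. For 7 of the 9 the range between numbers, on the log2 scale used below, was wider than the largest difference between methods within a number, and the exceptions were Hdac1 and Kdm1a. The plot of levels by library shows this for each gene. The same count was not taken over all genes tested, so it does not set these 9 apart from other genes. On that log2 scale the median range between numbers was 2.38 for all genes tested. Their median absolute difference between the means of the methods was 0.27. All 9 genes passed the filter used for testing (1 RPKM or more in at least 3 libraries). Their levels summed to 435, 499 and 368 RPKM in tagmentation libraries 1 to 3, against 424, 432 and 374 RPKM in sonication libraries 1 to 3. Within that sum the leading gene changed with the number. Rbbp7 was the highest of the 9 in numbers 1 and 2, by the mean of both methods, and Mbd3 in number 3, where Rbbp7 was seventh.

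**Figure D1:**
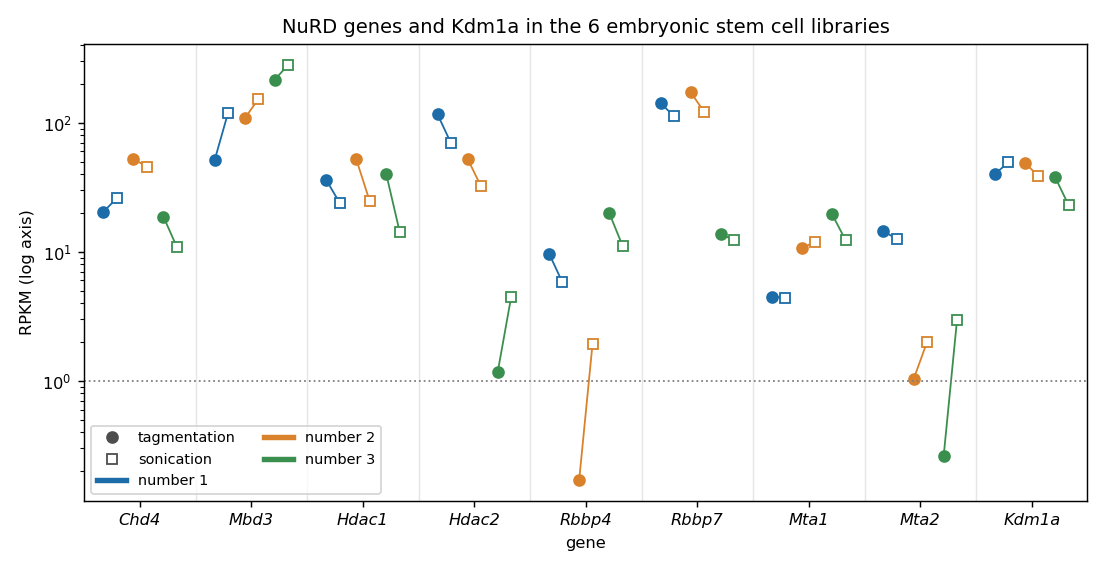
RPKM (log axis) of the 9 genes in each library, with filled circles for tagmentation, open squares for sonication, a line joining libraries of the same number and a dotted line at 1 RPKM. Symbols of the same colour lie near each other for most genes, while Hdac2, Rbbp4, Rbbp7 and Mta2 spread widely between numbers.

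The remodeller Chd4 had 20.4, 52.6 and 18.7 RPKM in tagmentation libraries 1 to 3, against 25.9, 45.8 and 10.96 RPKM in sonication libraries 1 to 3. Number 2 was highest with both methods, and the methods overlapped. Its gene model is long (6425 bases, found from the steps between its values), so these levels rest on many reads, 1327 in sonication library 3 at the fewest. The linker Mbd3 had 51.5, 108 and 216 RPKM after tagmentation and 119, 152 and 282 RPKM after sonication. It was highest in number 3 with both methods and lower after tagmentation in each number, but the ranges overlapped.

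The deacetylases behaved differently from each other. Hdac1 had 36.2, 52.3 and 39.9 RPKM in tagmentation libraries 1 to 3, against 24.1, 24.9 and 14.3 RPKM in sonication libraries 1 to 3, and was the only one of the 9 whose methods did not overlap, against 2.4% of all genes tested. Hdac2 had 116, 52.4 and 1.18 RPKM after tagmentation and 69.6, 32.1 and 4.47 RPKM after sonication. It was the most unequal deacetylase between numbers, plentiful in number 1 and nearly lost in number 3, where 82 reads in the tagmentation library and 169 in the sonication library were all that was found. Reads here have no molecular identifiers and follow PCR, so they are not independent molecules and such counts cover counting error only.

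The histone-binding pair was also uneven. Rbbp7 had 142, 173 and 13.7 RPKM in tagmentation libraries 1 to 3, against 113, 122 and 12.4 RPKM in sonication libraries 1 to 3, so that number 3 was low with both methods. Rbbp4 had 9.71, 0.170 and 20.0 RPKM after tagmentation and 5.80, 1.94 and 11.1 RPKM after sonication, with number 2 low. Its lowest value stands on 26 reads in tagmentation library 2, against 188 reads in sonication library 2.

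Of the scaffold subunits, Mta1 had 4.48, 10.7 and 19.5 RPKM after tagmentation and 4.42, 11.97 and 12.3 RPKM after sonication. Mta2 had 14.5, 1.03 and 0.262 RPKM after tagmentation and 12.5, 1.99 and 2.97 RPKM after sonication, and thus stood highest where Mta1 stood lowest. In tagmentation library 3 Mta2 rested on 28 reads, against 173 in sonication library 3. The demethylase Kdm1a was the steadiest gene, with 40.2, 48.6 and 37.9 RPKM after tagmentation and 49.3, 38.8 and 23.1 RPKM after sonication, a ratio of 2.13 between its highest and lowest library. The same ratio was 117 for Rbbp4, 98.5 for Hdac2, 55.4 for Mta2, 14.0 for Rbbp7 and 3.66 to 5.48 for the other members.

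Levels of 7 of the 9 genes differed between numbers in limma's F-test on log2(RPKM + 1) with the method as a term (Benjamini-Hochberg adjusted p under 0.05 over 6327 genes), where 88.1% of all genes tested were called. A share of 7 in 9 is near that background and says nothing particular about the complex. The widest range between numbers, on the log2(RPKM + 1) scale, was that of Hdac2 with 4.72 (adjusted p 5.15e-28), followed by Rbbp7 with 3.38 (3.18e-19), Rbbp4 with 3.10 (4.59e-15) and Mta2 with 2.69 (1.92e-14). These were the 4 members that differed by 4-fold or more, against 58.5% of all genes. Chd4 with 1.71 (2.95e-05), Mbd3 with 1.64 (9.36e-05) and Mta1 with 1.60 (4.03e-05) followed. Hdac1 with 0.57 (adjusted p 0.305) and Kdm1a with 0.57 (0.228) were not called. The median range was 1.71 for the 9 genes and 2.38 for all genes tested. This test takes the difference between methods within a number as its error, and it borrows most of its spread from genes of like level. The size of these p-values depended on the settings. With no filter the F-test's adjusted p was 0.00912 for Hdac2, 0.00148 for Rbbp7, 0.0337 for Rbbp4 and 0.0217 for Mta2.

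Apart from that of Hdac2, each call was lost without 1 of the numbers. Without number 1, Mta2 had a range of 0.14 (limma adjusted p 0.705) and Mta1 of 0.42 (0.141). Without number 2, Rbbp4 had a range of 0.90 (adjusted p 0.187) and Chd4 of 0.64 (0.379). Without number 3, Rbbp7 had a range of 0.20 (adjusted p 0.680) and Mbd3 of 0.70 (0.110). Hdac2 was called without any 1 of the numbers, with a range of 3.61 without number 1 (adjusted p 2.19e-05), 4.72 without number 2 (3.15e-13) and 1.11 without number 3 (0.00837). Without number 1, Hdac1 (0.57, adjusted p 0.0268) and Kdm1a (0.54, 0.0322) were called, and Kdm1a also was after median-ratio scaling (0.44, 0.0391).

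The share of each paralog in its pair changed with the number. The plot of shares shows this for Hdac1 and Hdac2 and for Rbbp4 and Rbbp7. Its MTA panel also holds Mta3, so shares of Mta1 and Mta2 there are smaller than those given here. The more abundant gene was not the same in all numbers for Hdac1 and Hdac2 and for Mta1 and Mta2, while Rbbp7 led Rbbp4 in all libraries except tagmentation library 3. Hdac1 made up 23.8%, 49.9% and 97.1% of the summed RPKM of Hdac1 and Hdac2 in tagmentation libraries 1 to 3, against 25.7%, 43.6% and 76.2% in sonication libraries 1 to 3. Number 1 thus held mostly Hdac2 and number 3 mostly Hdac1, with either method. Rbbp4 made up 6.40%, 0.0984% and 59.4% of the sum with Rbbp7 after tagmentation, against 4.88%, 1.56% and 47.3% after sonication. The numbers in which Rbbp4 made up least were those in which Rbbp7 was high. Mta1 made up 23.6%, 91.3% and 98.7% of the sum with Mta2 after tagmentation and 26.1%, 85.8% and 80.6% after sonication.

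**Figure D2:**
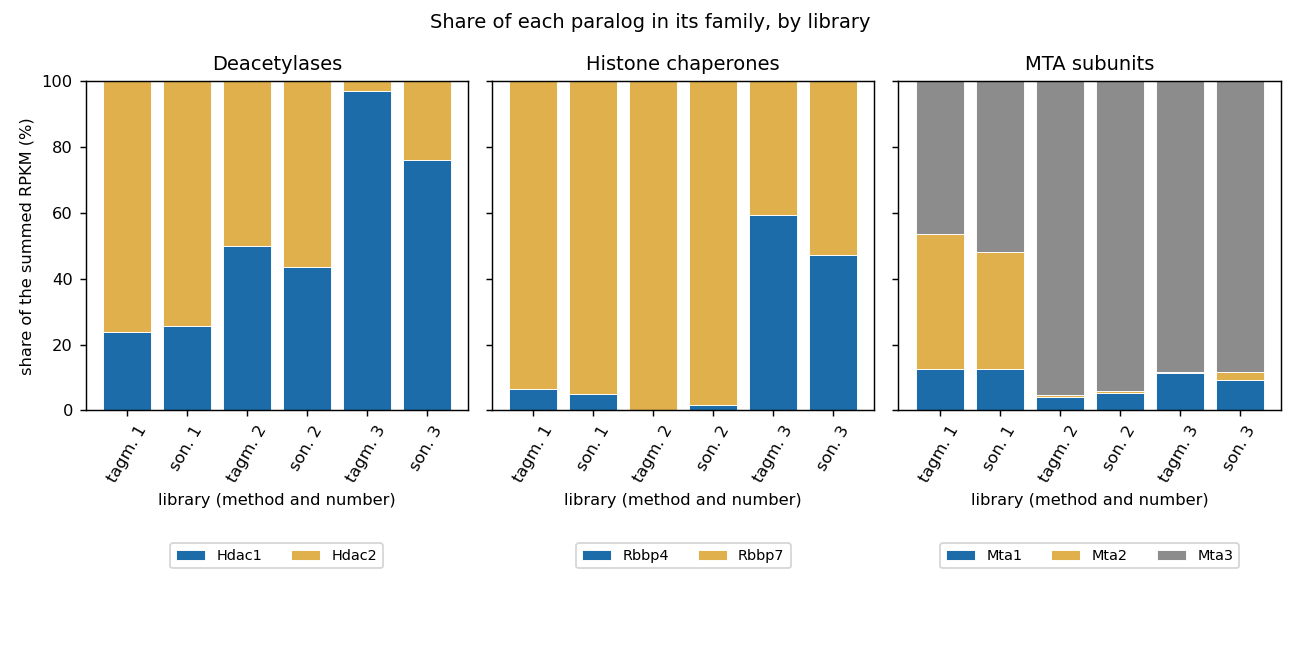
Share (%) of each paralog in the summed RPKM of its family, one bar per library, with tagmentation (tagm.) left of sonication (son.) for each number. The MTA family is Mta1, Mta2 and Mta3. Bars of the same number resemble each other, and Hdac1 runs between 23.8% and 97.1% of its pair.

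The ratios within pairs were compared between methods with a test that takes no account of the number and that, with 3 libraries against 3, cannot give a p below 0.1. No difference could pass it, so it does not show that the methods gave equal ratios. The log2 ratio of Hdac1 to Hdac2, with 1 added to each RPKM, was 0.86 ± 3.03 after tagmentation and -0.12 ± 1.502 after sonication (SD, n = 3 each; exact two-sided permutation p = 0.7). That of Rbbp4 to Rbbp7 was -3.48 ± 3.87 after tagmentation and -3.20 ± 2.73 after sonication (n = 3 each; exact p = 1). That of Mta1 to Mta2 was 1.69 ± 2.86 after tagmentation and 0.85 ± 1.89 after sonication (n = 3 each; exact p = 0.6). Adjusted over the 3 pairs each p was 1. The ranges of these ratios between numbers were 4.43, 6.49 and 4.29. The largest differences between methods within a number were 2.75, 1.83 and 2.28.

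Over the 6 libraries the members did not move as a unit. Of 36 pairs of members, 18 had a positive Pearson correlation of log2(RPKM + 1), and the median was 0.0052. The most alike were Hdac2 and Rbbp7 with 0.94, and the least alike Mta1 and Mta2 with -0.96. Chd4 was most like Rbbp7 (0.78), Mbd3 was most like Mta1 (0.76), Kdm1a was most like Rbbp7 (0.76), Hdac1 was most like Kdm1a (0.72), Mta2 was most like Hdac2 (0.70), and Rbbp4 had no closer partner than Mbd3 (0.26). The 6 libraries form 3 pairs that share a number, so these values describe the libraries only. Neither the count of positive pairs nor the median was taken over all genes tested, so they do not set the members apart from other genes. Among the 3914 genes that passed the filter for testing and also had a mean of at least 10 RPKM, Xrn2, Pabpc1 and Eif3m followed Hdac1 most closely (0.99 each), and Mthfd1, Gldc and Atp6v1e1 followed Chd4 (0.99 each). So many genes over 3 pairs allow high values by selection alone.

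Between methods, no member passed limma's test of tagmentation minus sonication on log2(RPKM + 1), each with a Benjamini-Hochberg adjusted p of 1.00. Nor did any of the 6327 genes tested (0% called), with 18 genes, 0.284%, at an unadjusted p under 0.05 and none of the 9 members among them. The spread between numbers enters the error of this fit. The members' median log2 difference was 0.16, with 7 above 0 and 2 below, and that of all genes tested was 0.028.

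Because libraries of the same number deviated together, the number was also taken as a block. In that fit 1 of the 9 members was called, Hdac1, against 3.29% of all genes (1.58% higher and 1.71% lower after tagmentation). Hdac1 was higher after tagmentation by 1.01 on the log2(RPKM + 1) scale (SE 0.30, limma adjusted p 0.0315; without the block SE 0.65, adjusted p 1.00). The fold was 1.504, 2.10 and 2.79 in numbers 1 to 3, so that all 3 pairs had the same direction, as did 19.6% of all genes. Its tagmentation values all lay above its sonication values, as they did in 1.88% of all genes. Each pair of Hdac1 had a mean of at least 20 RPKM. Over all pairs at that level the median log2 difference was -0.16, 0.17 and 0.44 in numbers 1 to 3. The call ended with a pseudocount of 0.1 (adjusted p 0.267), with no filter (0.698), after a correction for GC content (log2 difference 0.89, adjusted p 0.303), and without number 2 (0.999) or number 3 (0.909). It held with median-ratio scaling (0.0381), quantile normalization (0.0271), a length correction (0.0168), a pseudocount of 5 (0.0210), genes kept only from a mean of 10 RPKM (0.0268) and without number 1 (0.00832). The total degrees of freedom differed between these fits, from 212 with the block alone to 7.84 (GC correction), 9.87 (pseudocount 0.1) and 3.81 (no filter). Where the call held they ran from 4.15 (median-ratio scaling) to 12654 (pseudocount 5). After the GC correction the SE was 0.22, so the lost call does not by itself show a smaller difference. The share of Hdac1's words that occur in pseudogenes, given above, applies to the values of Hdac1, and its part in the difference was not tested.

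**Figure D3:**
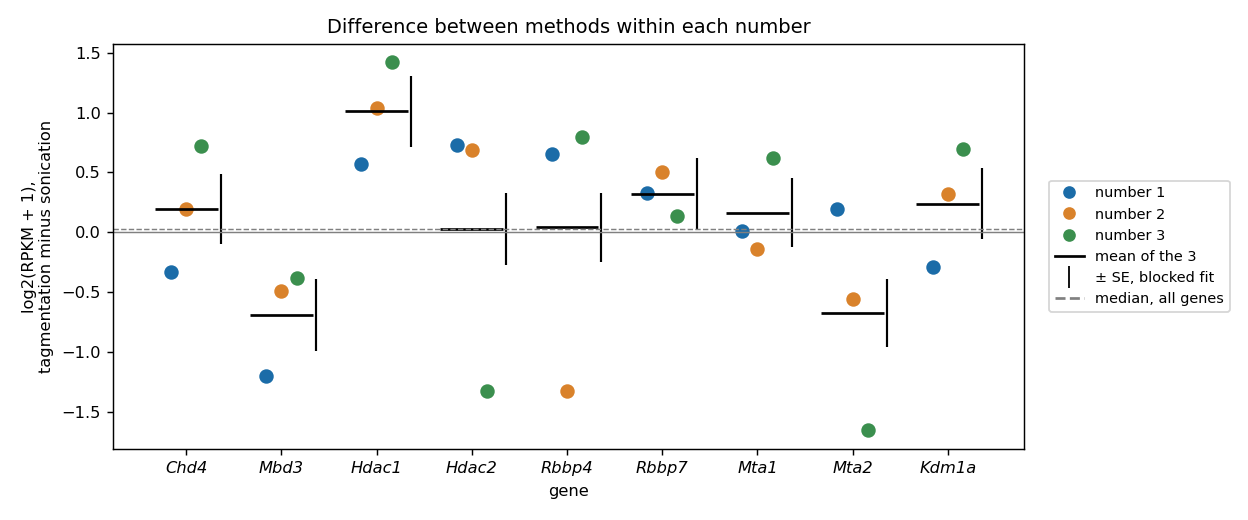
Difference between methods, tagmentation minus sonication on the log2(RPKM + 1) scale, within each number (points), with the mean of the 3 (black bar), its SE in the blocked fit (vertical line) and the median of all genes tested (dashed line). The 3 points of Hdac1 and of Rbbp7 lie above 0 and those of Mbd3 below 0, while Hdac2, Rbbp4 and Mta2 have 1 point far below the rest.

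Mbd3 was the only member lower after tagmentation in each number, and it was not called. Its log2 difference was -0.69 (SE 0.30 with the block, adjusted p 0.206), with -1.20, -0.49 and -0.38 in numbers 1 to 3, and 14.2% of all genes were lower in all 3 pairs. It was called with the block after median-ratio scaling (-0.81, adjusted p 0.0381) and quantile normalization (-0.83, 0.0271). Of the 9 transcripts that of Mbd3 had the highest GC content, 62.9%, against 41.9% in Hdac2 and 49.95% in Hdac1, and with the GC correction the difference was -0.28 (adjusted p 0.568). Rbbp7 was higher after tagmentation in each number, by 0.33, 0.50 and 0.13, with a mean of 0.32 (SE 0.30, adjusted p 0.659 with the block).

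The other members had no common direction. Chd4, Kdm1a and Mta1 gave 0.20, 0.24 and 0.16, and each had its highest difference in number 3, with 0.72, 0.69 and 0.62. In that number the median of all genes tested was 0.20, against -0.072 in number 1 and 0.079 in number 2. For pairs of libraries with a mean of at least 20 RPKM it was 0.44 in number 3, against -0.16 in number 1 and 0.17 in number 2. Kdm1a was in that class in number 3 (30.5 RPKM), while Chd4 and Mta1 were lower (14.8 and 15.9 RPKM). Hdac2 gave 0.031, with 0.73 and 0.69 in numbers 1 and 2 and -1.33 in number 3. Rbbp4 gave 0.041, with 0.66, -1.33 and 0.79. Mta2 gave -0.67, with 0.19, -0.56 and -1.65. These negative differences lay in pairs of libraries with a low mean, 2.83 RPKM for Hdac2, 1.05 RPKM for Rbbp4, and 1.51 and 1.62 RPKM for Mta2 in numbers 2 and 3. The only other member with a pair mean under 5 RPKM was Mta1 in number 1 (4.45 RPKM), where the difference was 0.014. With the block their adjusted p was 0.973, 0.967 and 0.189, and without number 1 Mta2 was called lower after tagmentation (-1.11, adjusted p 0.0408).

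The remaining subunits of NuRD were read from a list of 7 genes, of which 3 passed the filter. None was called between methods with or without the block, and their median log2 difference was 0.14. Mta3, the third MTA scaffold gene, was the most abundant, with 16.4, 245 and 152 RPKM in tagmentation libraries 1 to 3, against 18.2, 218 and 116 RPKM in sonication libraries 1 to 3. It made up 46.3%, 95.4% and 88.5% of the summed RPKM of Mta1, Mta2 and Mta3 after tagmentation and 51.8%, 94.0% and 88.3% after sonication. Mta3 was thus the leading MTA transcript in each library, by far in numbers 2 and 3 and closely followed by Mta2 in number 1. Cdk2ap1, a small subunit, had 54.1, 62.1 and 92.1 RPKM as its lowest, median and highest tagmentation library, against 38.5, 75.3 and 79.9 RPKM after sonication. Gatad2a, which links MBD proteins to CHD4, had 10.4 to 27.6 RPKM after tagmentation and 12.1 to 22.2 RPKM after sonication, while its paralog Gatad2b stayed at or below 0.0250 RPKM and was listed at 0 in 4 libraries.

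The alternative linker and remodellers were scarce. Mbd2, which replaces MBD3 in a separate NuRD assembly, was listed at 0 in numbers 1 and 2 with both methods, and had 0.218 RPKM in tagmentation library 3 and 0.315 RPKM in sonication library 3. At the length of its annotated transcript, 3 reads would have been 0.0444 to 0.0731 RPKM in the tagmentation libraries that listed it at 0, and 0.0507 to 0.0698 RPKM in those of sonication. Chd3, a remodeller that takes the place of CHD4, had 0, 0.0241 and 8.19 RPKM in tagmentation libraries 1 to 3, against 0, 0.0317 and 5.28 RPKM in sonication libraries 1 to 3. It was thus seen almost only in number 3, where Chd4 was lowest and made up 69.3% of the summed RPKM of Chd3, Chd4 and Chd5 after tagmentation and 67.3% after sonication. Chd5 reached at most 1.06 RPKM after tagmentation and 1.16 RPKM after sonication.

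**Figure D4:**
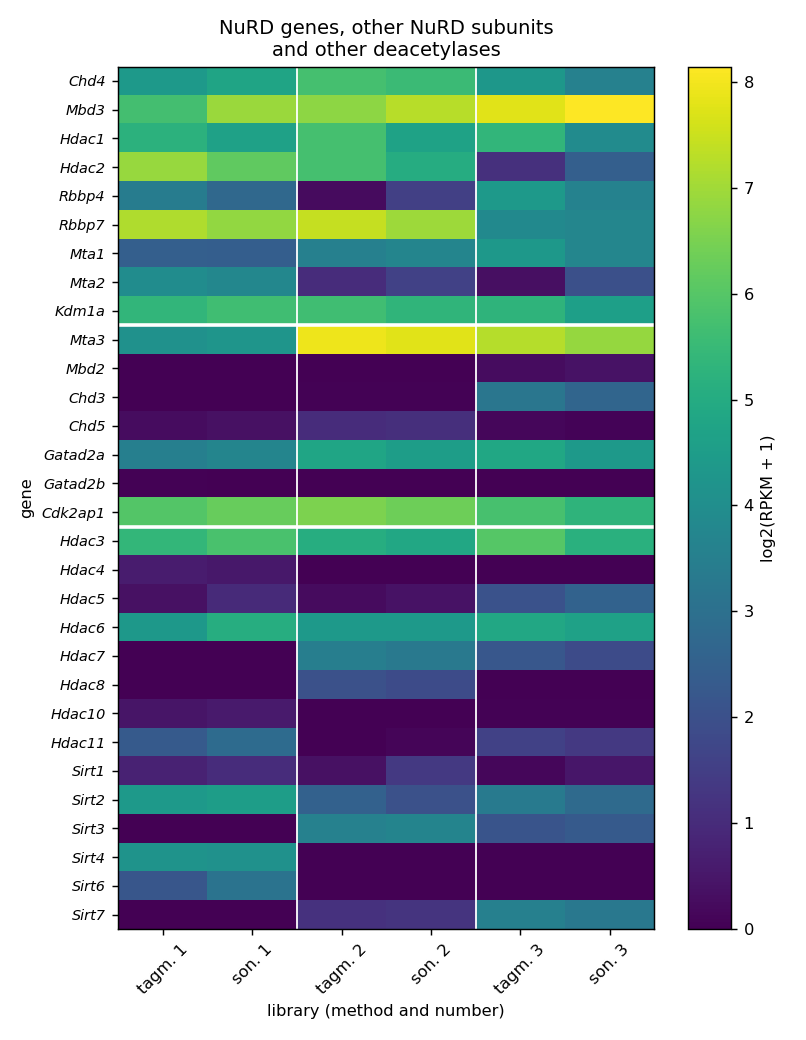
Levels, as log2(RPKM + 1), of the 9 genes (top), the other NuRD subunits (middle) and the other deacetylases (bottom) in each library, with tagmentation (tagm.) left of sonication (son.) for each number. Columns of the same number are alike, and genes such as Mta3, Chd3, Hdac7, Sirt4 and Sirt7 are darker in 1 or 2 numbers than in another.

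No row was found for Hdac9 and Sirt5. Of 14 other histone deacetylase genes with a row, 7 passed the filter. None was called between methods with or without the block, and their median log2 difference was 0.083. Hdac3, the catalytic subunit of the NCoR and SMRT complexes, had 40.8, 32.6 and 62.6 RPKM in tagmentation libraries 1 to 3, against 54.5, 28.8 and 35.2 RPKM in sonication libraries 1 to 3. Hdac6, a mostly cytoplasmic tubulin deacetylase, had 19.5, 20.2 and 28.4 RPKM after tagmentation and 32.4, 20.2 and 24.3 RPKM after sonication. Neither was called between numbers (limma adjusted p 0.175 and 0.576), and 5 of the 7 tested genes were, all by 4-fold or more, against 88.1% of all genes called and 58.5% called by that much. Counts between numbers in the lists that follow are to be read against the same 88.1%. Hdac8, the remaining class I enzyme, was seen in number 2 alone, with 3.08 RPKM after tagmentation and 2.66 RPKM after sonication, and was listed at 0 in the other 4 libraries. Sirt4, a mitochondrial sirtuin, had 17.2 RPKM in tagmentation library 1 and 16.5 RPKM in sonication library 1, and at most 0.0185 RPKM elsewhere. Sirt7, a nucleolar sirtuin, had 10.8 RPKM in tagmentation library 3 and 8.54 RPKM in sonication library 3, and was at 0 in the table for either library of number 1.

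Complexes that share these subunits were read from further lists. Of the Sin3 complex, the other main home of HDAC1 and HDAC2, 10 of 13 genes were tested, 0 were called between methods in either fit (median -0.017) and 7 between numbers. Sin3b, a scaffold of that complex, had 74.8, 188 and 68.0 RPKM after tagmentation and 136, 206 and 64.7 RPKM after sonication, and Suds3 had 20.8 to 51.0 RPKM over all libraries. Of the CoREST and LSD1 partners 4 of 8 were tested and 0 called between methods in either fit (median -0.31), while 4 were called between numbers. They were led by Hmg20b, with 8.33, 3.88 and 33.7 RPKM after tagmentation against 18.6, 4.50 and 42.3 RPKM after sonication, and by Gse1, with 4.71 to 24.7 RPKM over all libraries. Rcor2, a scaffold that joins KDM1A to the deacetylases, had 3.63 to 13.2 RPKM over all libraries, while no row was found for Rcor1 and Rcor3. Of the NCoR and SMRT complex 2 of 5 were tested, 0 were called between methods in either fit (median 0.39) and 2 between numbers. Gps2, at 0 in the table for either library of number 1, had 70.3 and 79.2 RPKM in the tagmentation and sonication libraries of number 2, while Ncor1 had 1.65 to 15.3 RPKM over all libraries. Of the MiDAC complex only Dnttip1 was tested (11.4 to 81.5 RPKM over all libraries, log2 difference 0.077), and it was called between numbers and not between methods.

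Other complexes that hold Rbbp4 or Rbbp7 had 8 of 11 genes tested, of which 7 were called between numbers. Suz12, a subunit of Polycomb repressive complex 2, had 25.6, 17.4 and 58.6 RPKM after tagmentation against 13.7, 8.13 and 15.1 RPKM after sonication. It was called higher after tagmentation with the block (1.25, SE 0.29, limma adjusted p 0.00427), and the median of the 8 genes was 0.23. Eed, another Polycomb subunit, had 170, 34.7 and 114 RPKM after tagmentation against 118, 30.6 and 41.3 RPKM after sonication, and Hat1, a histone acetyltransferase that acts with RBBP7, had 205, 10.5 and 40.3 RPKM after tagmentation against 146, 29.2 and 43.8 RPKM after sonication. Neither was called between methods. Of the histone acetyltransferases, which oppose the deacetylases, 6 of the 8 with a row were tested, with a median of 0.080. No row was found for Crebbp. All 6 tested genes were called between numbers, as were 88.1% of all genes. Kat6a, listed under its older symbol Myst3, was called higher after tagmentation with the block (0.93, SE 0.27, adjusted p 0.0333), with 9.11, 0.472 and 2.70 RPKM after tagmentation against 3.32, 0.184 and 0.552 RPKM after sonication. Without the block neither Suz12 nor Kat6a was called (adjusted p 1.00 each), and with it neither was called after the GC correction or with no filter, where 0 genes were called higher after tagmentation. The fits with GC correction and with no filter had 7.84 and 3.81 degrees of freedom, against 212 with the block alone. Kat5 had 7.38 to 68.1 RPKM and Kat2a 16.4 to 45.4 RPKM over all libraries, and neither was called between methods.

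Of 8 transcription factors and cofactors that bind NuRD in stem cells, all were tested and none was called between methods in either fit (median 0.19), while 6 were called between numbers. Sall4, a zinc finger factor that recruits NuRD, had 80.2, 10.1 and 52.2 RPKM after tagmentation and 61.0, 7.76 and 23.1 RPKM after sonication. Its relative Sall1 had 27.1, 18.1 and 26.0 RPKM after tagmentation and 16.4, 14.7 and 11.9 RPKM after sonication, and the methods did not overlap. The methods did not overlap in that direction in 1.88% of all genes tested. The other tested genes of these lists without overlap were Suz12, higher after tagmentation, and Sap18, lower after tagmentation. Sall1 was not called (log2 difference 0.68, limma adjusted p 0.202 with the block), and it was named after its values were seen. The most abundant of the list, Pou5f1 and Esrrb, had log2 differences of -0.063 and 0.30.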

How the data were processed

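The authors deposited RPKM values, per the file headers, where each library's alignments are also stated. The submitters' processing notes name mm9, CASAVA 1.7.0 and Partek without their roles. Neither aligner nor gene models nor the handling of multiply matched reads is stated there. No library was pooled. Values were tested as log2(RPKM + 1) in the 6327 genes that reached 1 RPKM in 3 or more of 6 libraries, a scale that understates changes of low genes, with limma 3.58.1 in R 4.3.3 (trend, two-sided, Benjamini-Hochberg, threshold 0.05) and method as the only term. Deviations of same-numbered libraries from their group means had correlations of 0.952, 0.969 and 0.934, so the numbers were taken as pairs from the data. Labels do not say what a number shares. The fit with this block took its spread mostly from other genes (210 prior degrees of freedom). On simulated data without the block 0% of 2-fold and 0% of 4-fold changes were recovered, and with it 2% and 72%. Spreads there were taken from single genes and shuffled among genes of all levels, so these shares cannot be carried over to the fits of the real values. Reads were recovered where 1 gene length (100 to 12000 bases) made all values whole within 0.002 reads beyond rounding. This held for 71.3% of 9452 genes, against 0.942% with totals moved by 1 library, and for 8 of the 9 members. No coordinates are given, since the annotation at hand is of another build. Members, lists and the rule for naming genes (all members, called genes of each list and its 2 most abundant) were chosen with earlier results of these data known. Genes named beside these were picked after their values were seen.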

Additional observations from a re-analysis of the deposited data

How the results depend on the processing

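Counts between methods moved with the block. Without it 0 genes and 0 members were called under all alternatives run, those without each library included (0 to 0). With it the genes called were 208 with the other settings kept, 554 with median-ratio scaling, 8 with a pseudocount of 0.1, 168 with genes kept only from a mean of 10 RPKM, 1 after the GC correction, 287 after the length correction, and 10 to 1051 without each number (1051 without number 1, 10 without number 2 and 19 without number 3). Alternatives chosen after seeing the data gave 476 with quantile normalization, 168 with a pseudocount of 5 and 0 with no filter. The degrees of freedom differed widely between these fits, as given for Hdac1 above, so their counts do not measure the size of differences alone. With the block, members called were 1 as it stands, 1 with the mean filter, the length correction or a pseudocount of 5, 2 with median-ratio scaling or quantile normalization, 0 with a pseudocount of 0.1, the GC correction or no filter, and 0 to 2 without each number. With the other settings kept, the block changed the call of Hdac1 alone. Mbd3 was called lower with the block after median-ratio scaling or quantile normalization, and Mta2 without number 1. Genes called between numbers were 3411 of 4023 with the mean filter, and 3856 to 4557 without each number, and members 5 to 8 under all alternatives.

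Directions of small differences were not stable. Hdac2 turned to -0.13 with a pseudocount of 0.1, -0.058 with median-ratio scaling and -0.0046 with quantile normalization, with or without the block, and to -0.050 after the GC correction. Rbbp4 turned to -0.45 with a pseudocount of 0.1, -0.11 after the GC correction and -0.011 after the length correction, and Mta1 to -0.036 with quantile normalization. Without each library, differences ran from -1.12 to 1.76 for Hdac2, -0.82 to 1.27 for Rbbp4, -0.73 to 1.46 for Rbbp7, -0.33 to 0.66 for Chd4, -0.29 to 0.66 for Mta1, -1.76 to 0.045 for Mta2 and -0.058 to 0.47 for Kdm1a. With the block and without each number they were -0.32 to -0.30 where Hdac2 turned, -0.34 to -0.27 for Rbbp4, -0.069 for Chd4 and -0.065 for Mta1. Hdac1 kept its direction in all (0.76 to 1.23), as did Mbd3 (-1.20 to -0.17). The paralog ratios ran from -0.71 to 2.24 (Hdac1 over Hdac2), -2.28 to 1.59 (Rbbp4 over Rbbp7) and -0.33 to 2.43 (Mta1 over Mta2) without each library. The cause of these changes was not tested.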

Other observations

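Hdac2 in number 3, Rbbp4 in number 2 and Mta2 in numbers 2 and 3 were low and read lower after tagmentation than after sonication. After these values were seen, low pairs were looked at over all genes tested, in genes that were high in another number. Rbbp4 and Mta2 had pair means of at most 15.6 and 13.5 RPKM, so of these genes only Hdac2 met the rule that follows. In genes with a mean of at least 20 RPKM in another number, 1283 pairs of libraries had a mean of 1 to 5 RPKM. Tagmentation was the lower of the pair in 62.1% of them, against 38.5% of 7456 pairs with a mean of at least 20 RPKM. By number the shares were 73.4%, 63.5% and 55.7% for low pairs and 60.4%, 32.7% and 18.9% for high pairs. Genes are not independent, so these shares describe the libraries and carry no test.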
